A study of Rattus norvegicus with 14 samples.

Results

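Red blood cell and neutrophil transcripts were followed in RNA from rat dorsal root ganglia, where the sensory neurons of a limb have their cell bodies. The 10 genes were taken by name from the deposited tables of 30562 genes: 5 of red blood cells (Hbb, Hba-a1, Hba-a3, Alas2 and Slc4a1) and 5 of neutrophils (S100a8, S100a9, Ngp, Camp and Lcn2). All 10 were present, and all 10 passed the filter on low counts in every comparison. The samples were ganglia L2 to L5 of 7 male wild-type rats, in each of which the extensor digitorum longus, a leg muscle, had been grafted onto the saphenous nerve, a sensory nerve, in a single hindlimb. Ganglia of that side (surgical) and of the side without an operation (control) gave 1 library each. Sampling was at 6 weeks for 3 rats (A, B, E) and at 8 weeks for 4 (C, D, G, H), which gave 14 libraries. The control libraries therefore came from operated animals too, and no library was labelled as coming from a rat without surgery. The labels gave no strain and no age.

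Mammalian red blood cells lose their nucleus as they mature, and young ones in the blood still carry globin mRNA from the marrow. Neutrophils form in the bone marrow and make their granule proteins in sequence. Primary granule proteins such as Mpo and Elane come in early precursors, secondary granule proteins such as Camp, Ngp and Lcn2 in later precursors, and S100a8 and S100a9 are kept at high level in the circulating cells. Dorsal root ganglia are well supplied with vessels and lie in openings between the vertebrae, which hold red marrow. In whole tissue, a lower value can mean fewer cells of a type or less RNA per cell, and these cannot be told apart.

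Sequences upstream of the transcription start are shown for 5 genes. They come from a single reference genome and carry no information on differences between these rats. RefSeq windows on build GRCr8 were found by symbol for 8 of the 10 genes, and no window was matched for Slc4a1 or S100a8. The 250 bases before the start were searched on both strands for the letters GATAA (GATA factors), CCAAT (the CCAAT box), CACCC (the CACCC box) and TTNNGNAA (C/EBP factors). Each motif was counted on its own, also where it overlapped another. In the first 3 sequences, read 5′ to 3′ on the gene's strand, capitals mark GATAA and CCAAT or their reverse complements:
Hba-a1 (chr10:15842581-15842830, minus strand): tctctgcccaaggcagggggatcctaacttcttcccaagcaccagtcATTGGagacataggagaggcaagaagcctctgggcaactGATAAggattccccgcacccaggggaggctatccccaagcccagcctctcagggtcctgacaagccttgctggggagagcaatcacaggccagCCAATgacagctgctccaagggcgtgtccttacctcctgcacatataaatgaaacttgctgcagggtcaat
Hba-a3 (chr10:15816944-15817193, minus strand): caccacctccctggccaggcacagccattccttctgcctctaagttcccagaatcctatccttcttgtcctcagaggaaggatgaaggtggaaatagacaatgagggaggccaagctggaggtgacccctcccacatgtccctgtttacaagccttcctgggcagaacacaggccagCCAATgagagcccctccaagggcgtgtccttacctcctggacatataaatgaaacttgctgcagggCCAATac
Alas2 (chrX:22895200-22895449, plus strand): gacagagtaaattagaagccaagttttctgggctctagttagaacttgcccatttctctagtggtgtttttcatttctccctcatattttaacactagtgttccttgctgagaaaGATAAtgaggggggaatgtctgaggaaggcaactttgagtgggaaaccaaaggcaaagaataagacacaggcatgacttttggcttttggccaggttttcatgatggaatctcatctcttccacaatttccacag
In the next pair, capitals mark TTNNGNAA or its reverse complement:
S100a9 (chr2:178490623-178490872, minus strand): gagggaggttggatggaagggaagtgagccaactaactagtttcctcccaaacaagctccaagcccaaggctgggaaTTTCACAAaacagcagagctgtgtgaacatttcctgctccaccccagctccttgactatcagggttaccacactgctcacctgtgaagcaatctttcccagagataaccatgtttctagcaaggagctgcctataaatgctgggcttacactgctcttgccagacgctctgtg
Ngp (chr8:119272355-119272604, plus strand): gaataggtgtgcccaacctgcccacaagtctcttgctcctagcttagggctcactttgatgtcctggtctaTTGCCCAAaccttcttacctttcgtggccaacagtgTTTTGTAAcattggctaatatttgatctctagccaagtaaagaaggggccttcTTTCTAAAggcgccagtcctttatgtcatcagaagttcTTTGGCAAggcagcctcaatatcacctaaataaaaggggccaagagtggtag

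The windows of the 2 alpha globin genes matched at 173 of 266 aligned columns, while Hba-a1 and Hba-a2 were 96.4% identical. GATAA was in the windows of Hba-a1, Alas2 and S100a9, 3 of 8, beside 23.5% of all 33469 promoters of that length. CCAAT was in those of Hbb, Hba-a1, Hba-a3 and Ngp, 4 of 8, beside 11385 of all 33469. CACCC was in those of Hbb, Hba-a1, S100a9, Camp and Lcn2, 5 of 8, beside 49.2%. TTNNGNAA was in those of Hbb, Alas2, S100a9, Ngp and Lcn2, 5 of 8, beside 37.2%, and the Ngp window held 4 matches. These are matches of letters and do not show binding.

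Library totals ran from 18489118 to 28237574 estimated counts. The 16 sensory neuron genes had a mean log2 CPM between 6.14 (rat A, surgical) and 9.45 (rat G, control), so the labelled tissue was present in all libraries at unequal levels. Several libraries stood apart in genes of neighbouring tissue. The surgical library of rat C held 8364 TPM of 10 bone cell genes, where the other 13 libraries held 70.3 to 478, and 25881 TPM of 8 skeletal muscle genes. The control library of rat H held 4942 TPM of the muscle genes and the surgical library of rat E 1056, where the other 11 libraries held 14.7 to 99.2. Beside these, 8 spinal cord genes reached 873 TPM on the surgical side of rat B, which lay between 7.38 and 27.5 in the other 13. Results are therefore also given without rat C, and without rats B, C and H where that changed them.

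Hbb, the beta chain of haemoglobin, had the highest TPM of the 10 in every library; in counts, Hba-a1 was above it in 7 of the 14. On the control side it stood at 85110, 83662 and 16632 TPM in rats A, B and E and at 57343, 20137, 14874 and 35551 TPM in rats D, C, G and H. On the surgical side, in the same order, it stood at 94409, 74031 and 22121 TPM and at 32161, 86483, 50630 and 18954 TPM. The sides overlapped over most of their range. High libraries were those of rats A and B and the surgical library of rat C, and both libraries of rat E were low. In those high libraries the 16 sensory neuron genes summed to 1874.5 (rat A, surgical) to 10325 TPM (rat B, surgical). All other libraries held 13873 TPM (rat H, control) or more. The part of neuron content in the levels was not tested. Hba-a1, an alpha chain, followed with 11651 to 75534 TPM, and Hba-a3, another alpha chain gene, was far lower with 96.4 to 1178 TPM. The tables held no row under the symbol Hba-a2, so the split of reads among near-identical alpha globin copies is uncertain. Other globins were close to absent: Hbe1, an embryonic beta-like chain, had a mean of 0.913 TPM.

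Alas2, the enzyme that starts haem synthesis in red cell precursors, stood on the control side at 374, 286 and 75.3 TPM in rats A, B and E and at 279, 90.4, 62.6 and 171 TPM in rats D, C, G and H. On the surgical side it stood at 390, 354 and 109.6 TPM and at 162, 485, 245 and 98.2 TPM. The library order was close to that of Hbb, with Alas2 at 3.42 to 5.61 TPM per 1000 TPM of Hbb. Slc4a1, the anion exchanger of the red cell membrane, ran from 23.3 TPM (rat E, control) to 348 TPM (rat C, surgical). Together the 5 red cell genes took 2.67% to 16.4% of all TPM and 1.00% to 9.52% of all counts.

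S100a8 and S100a9, the subunits of the alarmin calprotectin, were the most abundant neutrophil transcripts. In units of 1000 TPM, S100a8 stood on the control side at 8.52, 15.5 and 2.56 in rats A, B and E and at 5.91, 2.20, 1.69 and 9.17 in rats D, C, G and H. On the surgical side it stood at 9.09, 15.2 and 4.82 and at 1.76, 10.7, 11.2 and 5.72. Rat B was high on both sides, and the lowest values were the control libraries of rats G and C and the surgical library of rat D. Between these 2 genes the order depended on the scale. S100a8 was 1.85 to 2.45 times S100a9 in TPM in all 14 libraries, while S100a9 had 1.62 to 2.15 times as many counts, since TPM divides counts by transcript length.

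Ngp, a neutrophil granule protein of the cathelicidin family, stood on the control side at 586, 788 and 174 TPM in rats A, B and E and at 485, 160, 131 and 552 TPM in rats D, C, G and H. On the surgical side it stood at 624, 1129 and 379 TPM and at 186, 1017, 770.0 and 378 TPM. Camp, the cathelicidin precursor, ran from 167 to 1435 TPM with its extremes in rat G (control side) and rat B (surgical side). Lcn2, which binds bacterial iron carriers, ran from 29.5 to 464 TPM, a 15.7-fold range that ended in the surgical library of rat C. The 5 neutrophil genes together summed to 2760 TPM (rat G, control) to 25010 TPM (rat B, surgical).

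**Figure D1:**
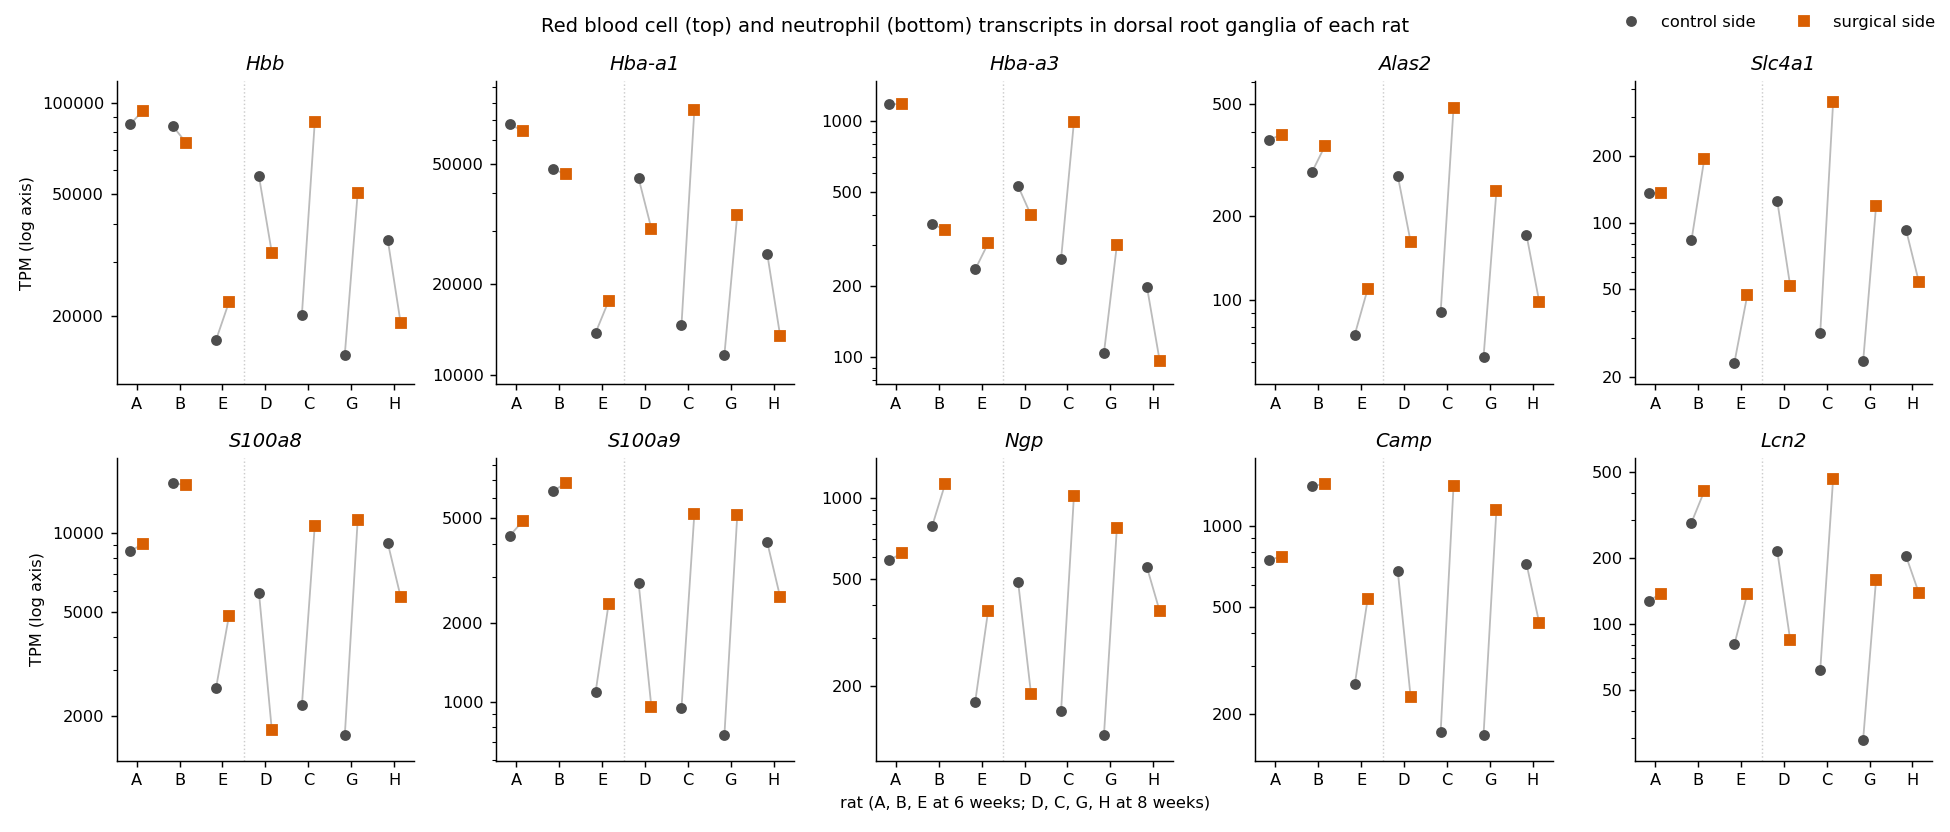
TPM (log axis) of each of the 10 genes in the control library (circles) and the surgical library (squares) of each rat, with a line joining the 2 libraries of a rat; the dotted line parts rats sampled at 6 and at 8 weeks. All 10 genes were higher on the surgical side in rats C, E and G and lower in rats D and H. The matching shares over all genes were not worked out.

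Surgical and control sides were compared first. No gene of the 10 differed between the sides beyond the spread between rats, although rats moved far in both directions. Of 17035 genes tested with rat as a block (edgeR quasi-likelihood test, Benjamini-Hochberg adjustment), 0 passed at an adjusted p under 0.05, or 0%, and so 0 of the 10. At an unadjusted p under 0.05 there were 412 genes (2.42%), none of the 10 among them. DESeq2 called 6 genes and limma 0, again none of the 10. Hbb was 0.29 higher on the log2 scale on the surgical side (SE 0.50, adjusted p = 1), with TPM higher in 4 of 7 rats. Slc4a1 had the widest difference of the red cell genes, 0.74 (SE 0.63, adjusted p = 1), in 4 of 7 rats. Among neutrophil genes Ngp had the widest, 0.64 (SE 0.58, adjusted p = 1), in 5 of 7 rats, and S100a8 the narrowest, 0.43 (SE 0.62, adjusted p = 1), in 4 of 7. These counts of rats are in TPM. In log2 CPM Ngp was lower on the surgical side of rat B (9.78 against 9.85), and Slc4a1 was higher on that of rat A (9.47 against 9.44). The median was 0.29 over the red cell genes and 0.55 over the neutrophil genes, where the median of all genes was 0. Rat C carried much of these estimates. Without it the differences of Hbb, Hba-a1 and Hba-a3 were −0.062, −0.075 and −0.061, and those of Alas2 and Slc4a1 were 0.082 and 0.29. Among the neutrophil genes, S100a9 had 0.15 without rat C, Ngp 0.24, Camp 0.088 and Lcn2 0.16. These are the lowest values of each gene with 1 rat left out, which for S100a8 was rat G (0.028). The medians without rat C were −0.061 over the red cell genes and 0.15 over the neutrophil genes.

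In rats C, G, E, D and H, all 10 genes moved in the same direction within the rat. The share of all genes that moved that way in each rat was not worked out. In rat C all 10 genes were higher on the surgical side, with a median ratio of 5.43 and a range from 3.81 (Hba-a3) to 10.99 (Slc4a1). In rat G all 10 were higher with a median ratio of 5.20, and in rat E all 10 were higher with a median of 1.79. In rat D all 10 were lower, with a median ratio of 0.404, and in rat H all 10 were lower, with a median of 0.590. Rats A and B had medians of 1.05 in TPM, with 7 and 6 of the 10 genes higher; the highest ratio in rat B was 2.33, for Slc4a1. In rats A and B the direction depended on the scale for some genes. In log2 CPM, on which the correlations below rest, 9 of the 10 genes were higher on the surgical side of rat A. In rat B 9 of the 10 genes were lower on that scale, Hbb at 14.79 against 15.55 and Hba-a1 at 14.52 against 15.18. Slc4a1 alone was higher there. These ratios rest on 1 library a side and carry no test of their own.

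The change between the sides was then compared between 8 and 6 weeks. None of the 17035 genes passed (0%; 252 at an unadjusted p under 0.05, and 5 by DESeq2), and 0 of the 10 did. The estimates ran from 0.49 (SE 1.35, Slc4a1) to 0.88 (SE 1.02, Hba-a1), each with adjusted p = 1 in edgeR, and the median of all genes was 0.05. Every one of the 10 was positive, yet without rat C or without rat G several turned negative, for instance Slc4a1 to −0.53 without rat C. The 4 rats at 8 weeks split evenly, with 2 of them higher and 2 lower on the surgical side.

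On the control side, which was compared between times in different rats, 25 of 16346 genes passed (0.153%; 3 higher and 22 lower at 8 weeks), and 0 of the 10 were among them. Before adjustment, 5108 genes (31.2%) fell under 0.05 in the edgeR quasi-likelihood test, with Hba-a3 among them and no other gene of the 10. All 10 had negative estimates. Hba-a3 was 1.81 lower at 8 weeks on the log2 scale (−1.81, SE 0.72, adjusted p = 0.146). Hbb had −1.70 (SE 0.74, adjusted p = 0.164) and S100a8 −1.66 (SE 0.83, adjusted p = 0.199). Slc4a1 had the smallest estimate, −0.96 (SE 0.79, adjusted p = 0.385). Under the other settings and with rats left out, the estimates stayed negative but varied in size. Hbb ran from −2.14 to −0.81, S100a8 from −2.25 to −0.72 and Slc4a1 from −1.42 to −0.24. Mean TPM of Hbb was 61802 at 6 weeks and 31976 at 8 weeks. Control values of the 2 times overlapped for every gene, since rat E at 6 weeks was as low as rats C and G at 8 weeks. Without rat E, 6388 genes passed, and Hbb (−2.10, adjusted p = 0.0253), Hba-a1 (−1.97, 0.0319), Hba-a3 (−2.15, 0.037) and Alas2 (−1.82, 0.0429) were among them in edgeR. That is 4 of the 10 where 38.3% of all genes passed, so the members' share was close to the background. Without rat A no gene passed. With all control libraries, DESeq2 called 3096 of the 16346 genes, none of the 10. The medians of the red cell and neutrophil genes were −1.59 and −1.61, where that of all genes was −0.057. Lists of other cells also had medians away from 0 in the same comparison, with 0 genes called. The 16 neuron genes had a median of 0.73 (16 of 16 positive) and the 8 muscle genes 4.47 (8 of 8). The muscle value came with a single library, the control library of rat H, at 4942 TPM. The other control libraries at 8 weeks held 31.4 to 46.0 TPM of the muscle genes, and those at 6 weeks 28.1 to 67.9. Macrophage genes had −1.34 (0 of 9 positive), T cell genes −1.26 (0 of 7), Schwann cell genes −1.05 (0 of 7) and endothelial genes −0.37 (0 of 9). In TPM, however, the endothelial sum had a mean of 107 at 6 weeks and 114 at 8 weeks. Negative estimates were thus found in lists outside the blood cells of the 10 genes as well, and their part in the result was not tested.

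On the surgical side, 0 of 16606 genes passed between the times (0%; 1089 at an unadjusted p under 0.05, 8 by DESeq2, 3 and 4 by limma), and 0 of the 10 did. Hba-a3 had −0.78 (SE 0.93, adjusted p = 0.777) and S100a9 −0.70 (SE 0.69, adjusted p = 0.737). Slc4a1 had 0.004 (SE 0.88, adjusted p = 0.998). All other genes of the 10 were negative. The red cell median was −0.47 and the neutrophil median −0.48, where that of all genes was 0.006. Without rat C these medians were −1.19 and −1.04, with −0.080 over all genes and 0 of the 10 called.

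**Figure D2:**
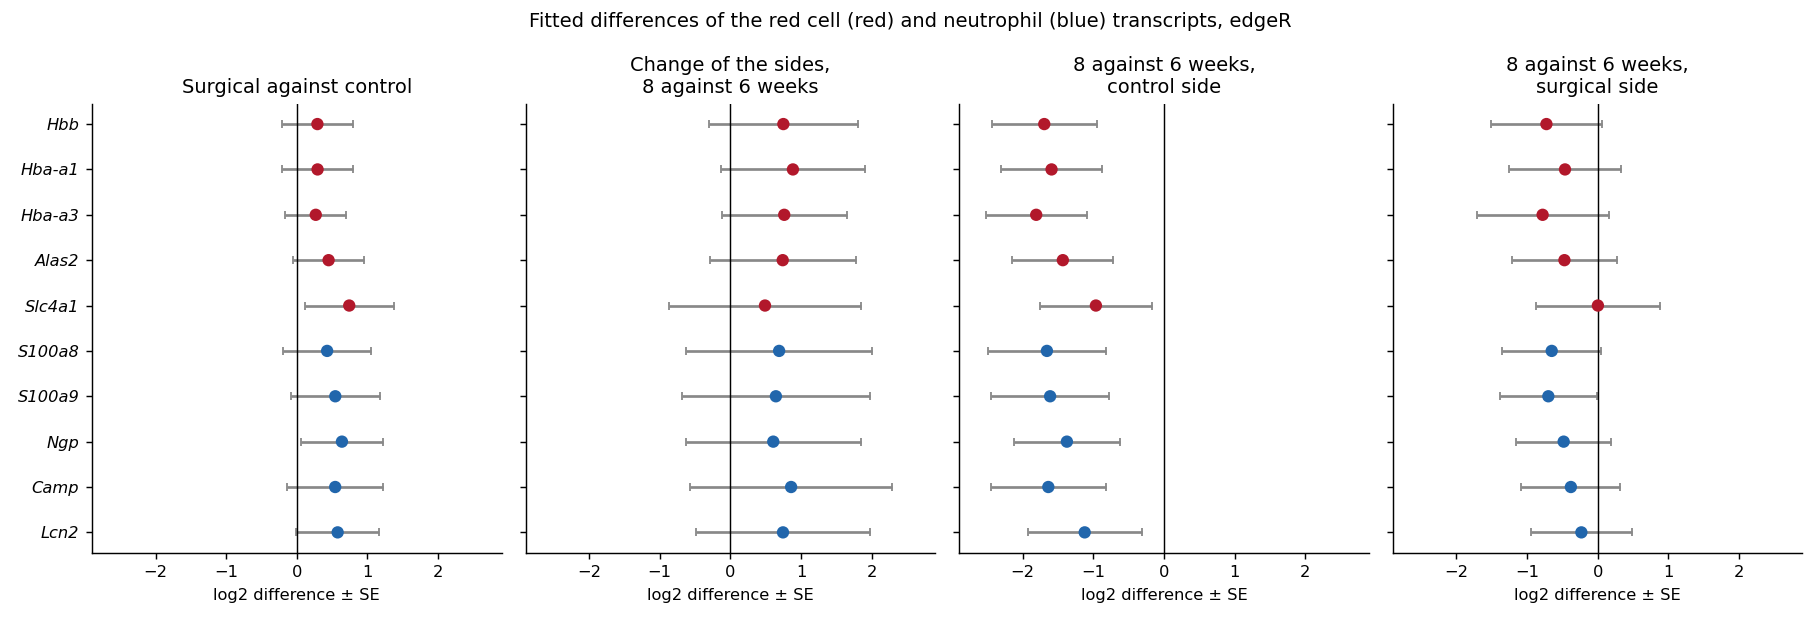
Log2 differences (points) with their SE (bars) of the 10 genes in the 4 comparisons fitted with edgeR; red points are red cell genes and blue points neutrophil genes. On the control side all 10 lie below 0 at 8 weeks, between −0.96 and −1.81, and in the other panels most bars cross 0.

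Red cell and neutrophil genes were then set against each other over the 7 rats, in log2 CPM, on each side and for the difference between sides. S100a8 followed Hbb on the control side (r = 0.936, exact permutation p = 0.00337, adjusted over 24 relations 0.0054; rho = 0.964, p = 0.00278). It did so as well in the differences between the sides (r = 0.960, exact permutation p = 0.00317, adjusted 0.0054; rho = 0.857, p = 0.0238). On the surgical side r was 0.709 (exact permutation p = 0.0746, adjusted 0.0853; rho = 0.750, p = 0.0663), which did not pass. Without the 2 rats farthest from the median of Hbb, r was 0.865 on the control side, 0.745 on the surgical side and 0.846 in the differences; over these 5 rats no relation of S100a8 with Hbb passed.

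Ngp with Hbb gave r = 0.960 on the control side (exact permutation p = 0.00198, adjusted 0.00397; rho = 0.964, p = 0.00278) and 0.964 in the differences (exact permutation p = 0.00119, adjusted 0.00317; rho = 0.893, p = 0.0123). On the surgical side Ngp with Hbb gave r = 0.796 (exact permutation p = 0.0442, adjusted 0.0559; rho = 0.786, p = 0.048). Leaving out the 2 farthest rats gave 0.928, 0.800 and 0.835 for the control side, the differences and the surgical side. Rat D was the rat off the line on the surgical side: its Hbb was the third lowest and its S100a8 the lowest. Without it r was 0.914 for S100a8 and 0.920 for Ngp with Hbb. Rat D was picked for lying off the line after the values were seen, so this rise in r carries no weight. The libraries of 1 time were too few (3 or 4 rats) for a value within a time. All pairs share the scaling of their library.

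Pairs within a cell type were set beside these. Alas2 with Hbb gave r of 0.993, 0.994 and 0.992 on the control side, the surgical side and in the differences (exact permutation p = 0.000595, 0.000397 and 0.000397, adjusted 0.00204, 0.0019 and 0.0019). S100a8 with Ngp gave 0.993, 0.976 and 0.991 (exact permutation p = 0.000198, 0.00159 and 0.000397, adjusted 0.0019, 0.00381 and 0.0019), and 0.000198 is the smallest p that 7 rats can give. Spearman's rho was 0.964 in each set of rats for Alas2 with Hbb, and 1, 0.857 and 0.964 for S100a8 with Ngp. Ngp with Lcn2 gave r of 0.949, 0.894 and 0.995 (exact permutation p = 0.00119, 0.00437 and 0.000198, adjusted 0.00317, 0.00655 and 0.0019), with rho of 0.857, 1 and 1. On the control side this lay below Ngp with Hbb, and Alas2 with Ngp, a pair across the cell types, reached 0.978 in the differences (exact permutation p = 0.000595, adjusted 0.00204; rho = 0.964), so the pairs within and across cell types overlapped. S100a8 with Pecam1, an endothelial adhesion gene, gave r of 0.321, 0.126 and −0.110 (exact permutation p = 0.485, 0.844 and 0.794, adjusted 0.529, 0.844 and 0.828), with rho of 0.071, 0.286 and −0.179. Whether any of these correlations differ from each other was not tested.

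**Figure D3:**
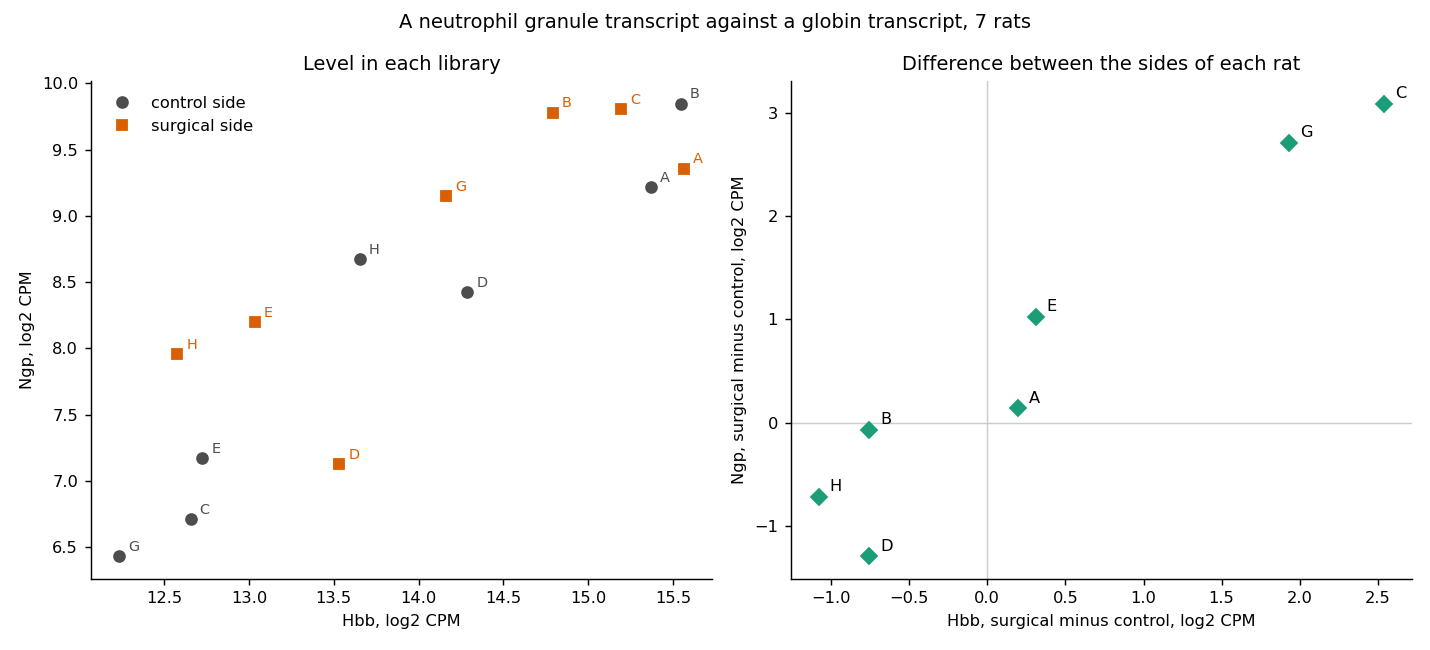
Ngp against Hbb in log2 CPM, as the level in each library (left; circles control side, squares surgical side, letters rats) and as the surgical minus control difference of each rat (right). At the right, rats C and G lie highest in both genes and rats D and H lowest in Ngp; at the left, the surgical library of rat D is the lowest of the 7 squares in Ngp.

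The amount of neutrophil RNA for a given amount of red cell RNA differed between rats. Per 100 TPM of the 5 red cell genes, the 5 neutrophil genes had 9.24 TPM on the control and 9.64 on the surgical side of rat A. Rat B had 18.3 and 20.6, and rat E 13.5 and 20.5. In rats D, C, G and H the values were 9.82 and 5.09, 10.1 and 11.4, 10.3 and 21.6, and 24.03 and 28.1. Rat H was the highest on both sides, and rats A, C and D were low on both. In 6 of 7 rats the ratio was higher on the surgical side, with rat D as the exception, and the sides overlapped. The ratio spanned 5.52-fold over the libraries, the red cell genes 6.13-fold and the neutrophil genes 9.06-fold. Its SD on the log2 scale was 0.65 over the rat means and 0.42 within rats. The red cell sum had 0.80 and 0.81 and the neutrophil sum 0.78 and 1.12. The first SD is of means of 2 libraries and the second of single libraries. S100a8 and S100a9 made up most of the neutrophil sum (means of 7430 and 3441 of 12300 TPM). Hbb and Hba-a1 made up most of the red cell sum (49435 and 36315 of 86545). Ngp over Alas2, 2 less abundant genes, spanned 3.34-fold, with SDs of 0.49 and 0.29.

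Some ratios within a cell type were close in both libraries of a rat and far apart between rats. Hba-a1 stood at 57.5 times Hba-a3 in TPM on the control and 55.0 on the surgical side of rat A. The ratios were 132 and 134 for rat B and 58.7 and 57.9 for rat E. In rats D, C, G and H the ratios were 85.0 and 76.5, 56.3 and 76.3, 111 and 114, and 126 and 139.7. The SD was 0.55 over rats and 0.13 within rats on the log2 scale, and rats B, H and G did not overlap rats A, E, C and D. Lcn2 per 100 TPM of Ngp likewise was near 22 on both sides of rats A and G (20.7 to 22.5) and between 36.1 and 46.2 in the other rats, with an SD of 0.44 over rats and 0.12 within rats. For Ngp per 100 TPM of S100a8 the SD was 0.22 within rats and 0.21 over the rat means, each a mean of 2 libraries. These ratios were picked after their values were seen and carry no test. Both libraries of a rat share the animal and cannot be told apart from anything else handled by rat.

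**Figure D4:**
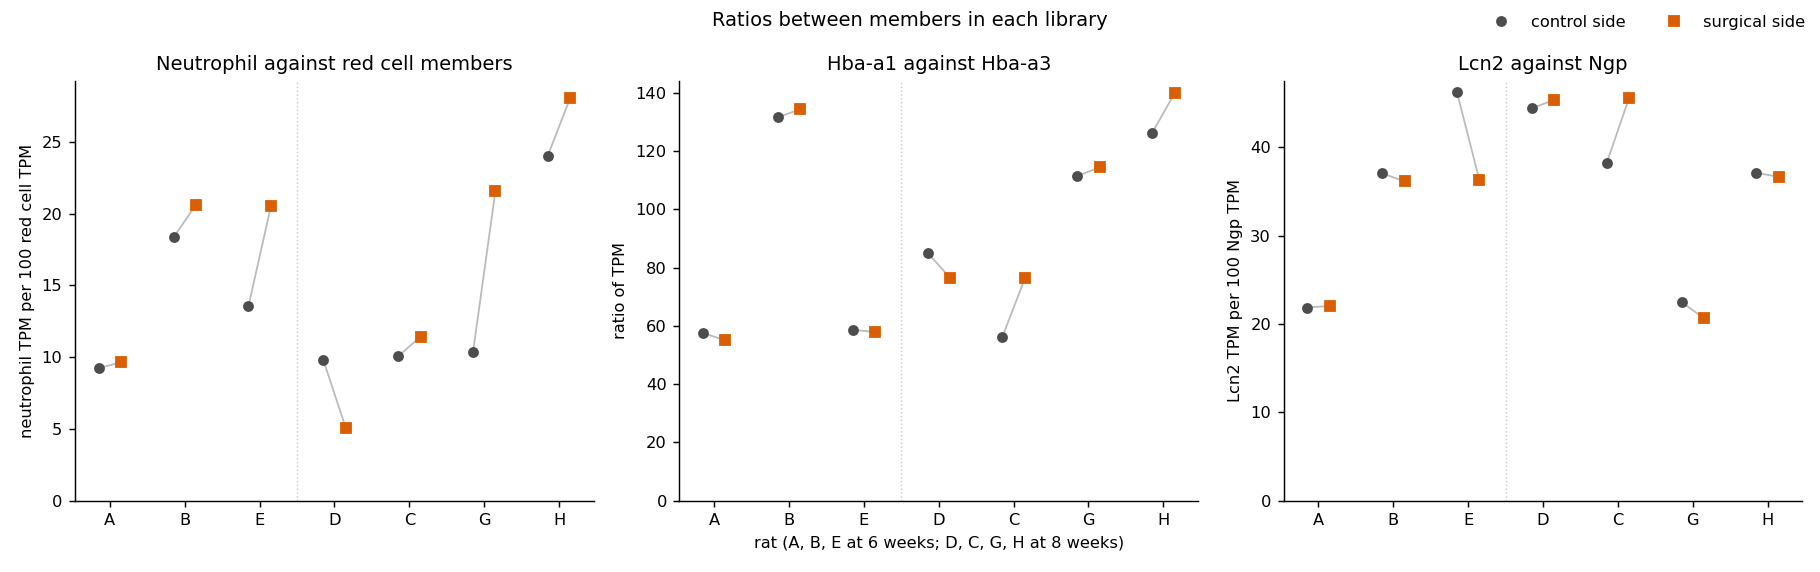
Neutrophil TPM per 100 red cell TPM (left), the ratio of Hba-a1 to Hba-a3 (middle) and Lcn2 TPM per 100 Ngp TPM (right) in the control (circles) and surgical (squares) library of each rat. The middle and right panels show short lines within rats, with within-rat SDs of 0.13 and 0.12 on the log2 scale, beside larger steps between rats.

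Genes of cells that normally stay in the marrow were present in every library. Of 8 primary granule genes, all were detected in all 14 libraries, led by Mpo (14.2 to 334 TPM), Elane (7.98 to 301), Ctsg (6.19 to 183), Prtn3 (5.05 to 122) and Ms4a3 (2.81 to 51.8), which belong to early neutrophil precursors. Of 7 B cell precursor genes all were detected in all libraries, with Vpreb1 and Igll1, the surrogate light chain, at 1.36 to 53.0 and 1.16 to 39.4 TPM. The erythroblast gene Ahsp, which holds free alpha globin, ran from 38.5 to 703 TPM. The surgical library of rat C was highest for the summed primary granule genes (1030 TPM, 41.5 to 482 in the other 13), the B precursor genes (142 TPM, 6.17 to 54.1 in the others) and 15 cell division genes (579 TPM, 44.0 to 325 in the others). It also held the bone cell genes given above, led by Bglap (6691 TPM, with a median of 39.8 over all libraries). The part of bone and marrow RNA in the members' values was not tested. The primary granule genes stood at 0.949 to 3.26 TPM per 100 TPM of the 5 neutrophil genes in the other 13 libraries and at 5.50 in that one.

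Mature neutrophil receptor genes did not peak in that library. Clec4d, Il1r2, Csf3r and Trem1, receptors of the neutrophil surface, had means of 15.4, 12.4, 10.2 and 8.87 TPM. Their list of 12 genes summed to 24.9 to 174 TPM with its highest value on the surgical side of rat B and 103 TPM on that of rat C. Per 100 TPM of the 5 neutrophil genes the list stood at 0.451 to 1.68, and the surgical library of rat C with 0.549 was the second lowest. The list of secondary and tertiary granule genes also held defensins, and Defa5 and RatNP-3b led it with means of 955 and 829 TPM. That list mixes granule types and is called secondary granule genes below. Ltf, the lactoferrin gene of secondary granules, was at most 0.280 TPM and is named because of that value. Genes of neutrophil recruiting ligands and alarmin receptors were low, and their list is called the recruiting list below. Il1b had a mean of 6.03 TPM, Tlr4, a receptor of calprotectin, 2.04, and the chemokine gene Cxcl1 1.51.

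**Figure D5:**
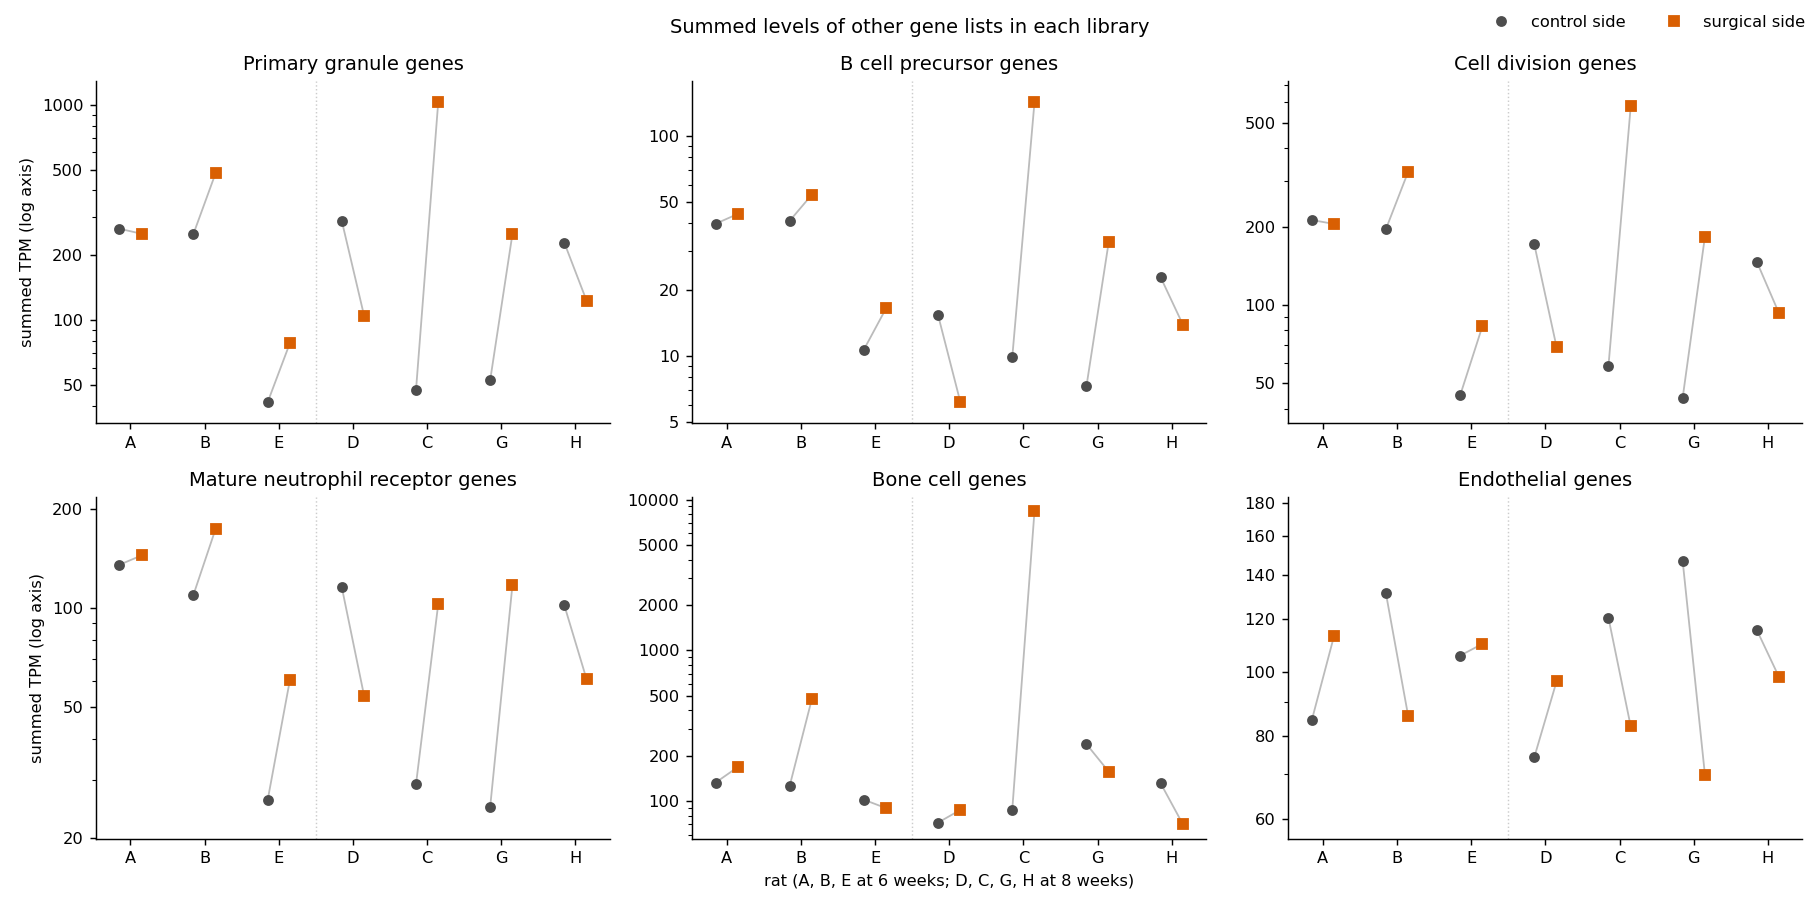
Summed TPM (log axis) of 6 gene lists in the control (circles) and surgical (squares) library of each rat. The surgical library of rat C stands at 1030 TPM for primary granule genes and 8364 for bone cell genes, while endothelial genes stay between 69.9 and 147 TPM.

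Between the sides, none of these lists had a called gene. The 8 primary granule genes were positive in 8 of 8 (median 0.68), with Mpo at 0.81 (SE 0.73, adjusted p = 1). The secondary granule genes were positive in 9 of 9 tested (median 0.65), the mature neutrophil genes in 11 of 11 (0.54), the B precursor genes in 7 of 7 (0.67), the eosinophil genes in 5 of 5 (0.70) and the cell division genes in 15 of 15 (0.62). Of the other erythroid genes 25 of 26 were positive (median 0.50). Platelet genes went the other way, with 4 of 12 positive (median −0.20). The recruiting ligands and alarmin receptors were positive in 0 of 6 tested (median −0.09), with Cxcl1 at −0.61 (SE 0.39, adjusted p = 1). The 10 bone cell genes were positive in 9 of 10 (median 0.64) and the muscle genes in 8 of 8 (0.95). The median of all genes was 0. Without rat C, an alternative chosen after seeing the data, these medians fell to 0.15 for primary granule (7 of 8 positive), 0.24 for secondary granule (6 of 9), 0.25 for mature neutrophil (11 of 11), 0.22 for B precursor (6 of 7), 0.28 for eosinophil (5 of 5), 0.21 for cell division (14 of 15) and 0.098 for the other erythroid genes (22 of 26). The recruiting list then stood at −0.35 (0 of 6), the bone cell genes at 0.076 and the muscle genes at 0.17 (5 of 8). Platelet genes stood at −0.66 (0 of 12). All genes stood at −0.0050, with 0 called in each list.

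Between the times, the same lists were negative on the control side at 8 weeks, with medians from −0.86 (eosinophil) to −1.89 (B precursor) over the neutrophil, B precursor, eosinophil and cell division genes, 0 called and −0.057 over all genes. On the surgical side they split. The primary granule and B precursor medians were 0.19 and 0.041, while the mature neutrophil genes had −0.94 (0 of 11 positive), the eosinophil genes −0.70 (0 of 5), the recruiting list −0.90 (1 of 4), the secondary granule genes −0.40 (3 of 9) and the cell division genes −0.11 (7 of 15). Without rat C all of these were negative, with medians of −1.25 for primary granule, −1.68 for B precursor, −1.11 for mature neutrophil, −0.92 for eosinophil, −0.95 for recruiting, −1.05 for secondary granule and −1.27 for cell division genes, 0 of their genes positive and 0 called.

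Haem synthesis genes other than Alas2 and haem handling genes had side medians below the 0.29 of the red cell genes. Whether the lists differ was not tested. Over 10 synthesis genes the side median was 0.22, with 10 of 10 positive and 0 called, and without rat C it was −0.062 with 4 of 10 positive. Urod, Alad and Fech had means of 93.2, 48.8 and 42.9 TPM. Of 8 haem and iron handling genes tested, 5 were positive (median 0.26, 0 called; 0.010 without rat C). Fth1, the ferritin heavy chain, had a mean of 9239 TPM, and Hmox1, which breaks down haem, had 33.4 TPM. Dmtn and Tmod1, cytoskeletal genes on the erythroid list, did not follow the red cell genes: both were highest in the control library of rat G, where the red cell sum was lowest and the neuron level highest.

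Over the 14 libraries, 13853 named genes averaging 1 TPM or more were ranked by their Pearson correlation with the mean log2 CPM of each group of 5. For the red cell genes the closest were Ybx3 (r = 0.986), Apobec3, Cxcr4, Arhgap45, Rbm38, Hycc1, Cited4, Psd4, Cd72 and Bpgm (r = 0.973). For the neutrophil genes they were LOC691141 (r = 0.989), Ifitm6, Padi4, Bmx, Ncf1, Myo1f, Pygl, Evi2b, Orm1 and Chit1 (r = 0.982). Ybx3 ran from 124 to 794 TPM and Ifitm6 from 22.1 to 160 TPM. No gene was in both groups of 10. The values are the highest of many and describe these libraries, which come in pairs from 7 rats.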

How the data were processed

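RNA of dorsal root ganglia from both sides of 7 rats was sequenced in 14 libraries. The deposited tables hold estimated counts and TPM of each gene, made by the authors. The submitters' processing notes name FastQC, Trim Galore, Salmon and DESeq2, with no versions, and the genome build is not given in the sources used here. The labels name polyA RNA and also a ribosomal depletion kit. Rats were paired by the letter in the titles. Letters C and D were exchanged between titles and column names on both sides, which left the pairs intact. Rat C's surgical title gave replicate 1, which was read as replicate 2.

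The estimated counts, which were whole numbers as deposited, went into edgeR 4.0.16 under R 4.3.3 (TMM, filterByExpr with a minimum count of 10, robust quasi-likelihood fit, Benjamini-Hochberg adjustment over all genes tested, threshold 0.05). The rat was a block in both comparisons of the sides, because both libraries of a rat come from 1 animal; without the block 0 genes were called as well. The SE is the log2 difference divided by the square root of F. Log2 CPM used a prior count of 2. Relations between 8 gene pairs used two-sided exact permutation tests over rats in Python 3.11.15 (scipy 1.17.1), adjusted over 24 relations. Alternatives were DESeq2 1.42.0, its size factors, library sizes without the 10 genes and other globin and mitochondrial genes, other filters, and limma 3.58.1 on log2 TPM, adding 1 or 0.1, for genes averaging at least 0.5 TPM. Rats were also left out in turn, and rats B, C and H together. Promoter windows came from RefSeq (GRCr8), aligned with Biopython 1.88.

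All 10 genes were named. Of each list, at most 5 genes were named, the highest by mean TPM, except Ltf and the genes said to be picked by value; the 10 genes closest to each group were named by rank. Some genes that this rule takes are not reported here. The members and lists were chosen with earlier results of these data known. Counting error is small beside the spread between rats, as the lowest count of the 10 genes was 447.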

Additional observations from a re-analysis of the deposited data

How the results depend on the processing

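Under other settings 589 member results kept direction and side of the threshold, 27 turned direction and 4 came to pass; no member passed otherwise. DESeq2 called 6, 5, 3096 and 8 genes for the sides, the change of the sides, and the times on the control and the surgical side. Limma on log2(TPM + 1) called 8 and 3 genes for the times on the control and surgical side, and on log2(TPM + 0.1) 13 and 4. Without the replicate block 0 genes were called for the sides and 0 for their change. Leaving out 1 rat gave 0 to 6388 genes for the control side, and leaving out rats B, C and H gave 0.

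Leaving out 1 rat moved the side differences of Hbb between −0.062 and 0.54, of Hba-a1 between −0.075 and 0.54 and of Hba-a3 between −0.061 and 0.52, lowest without rat C. For the change of the sides it moved Alas2 between −0.0030 and 1.43, Slc4a1 between −0.53 and 1.43, S100a9 between −0.23 and 1.57, Ngp between −0.26 and 1.48, Camp between −0.15 and 1.87 and Lcn2 between −0.16 and 1.63, lowest without rat C, and S100a8 between −0.18 (without rat G) and 1.62. For the times on the surgical side it moved Hba-a1 between −1.18 and 0.25, Hba-a3 between −1.71 and 0.50, Alas2 between −1.19 and 0.091, Slc4a1 between −1.14 and 0.29 and Lcn2 between −1.16 and 0.24. There Slc4a1, at 0.004, was −0.052 with no filter, −0.0070 with the filter at 1 CPM, −0.050 and −0.052 by limma with 1 and 0.1 added and −0.64 without rats B, C and H.

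Without the 2 farthest rats, S100a8 with Hbb gave r = 0.865 (control side) and 0.846 (differences) and Ngp with Hbb 0.928 and 0.800, none passing after adjustment. On the surgical side, leaving out 1 rat gave r from 0.675 to 0.914 for S100a8 and from 0.749 to 0.920 for Ngp with Hbb. S100a8 with Pecam1 had r of −0.281 and −0.313 on the control and surgical side in log2(TPM + 0.1), −0.604, −0.715 and 0.133 without the 2 farthest rats, and −0.310 to 0.545, −0.062 to 0.420 and −0.368 to 0.257 with 1 rat left out. Causes of these shifts were not tested. The fits had 5 or 6 residual degrees of freedom, and the SEs of 0.43 to 1.43 limit what could be called.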
